A study of Danio rerio with 11 samples.

Results

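The genes described here encode the subunits of the proteasome together with its activators, its inhibitor and its assembly factors. They were chosen by symbol alone, as every gene whose zebrafish symbol began with psm, a letter from a to g and a digit in the radiation tables, joined by Ensembl identifier to the torpor table. The rule found 55 genes, of 32520 genes in the 18.5-mel table and 19071 in each of the tables of the irradiated groups. By their known products they fell into 9 core alpha, 7 constitutive core beta, 6 alternative beta, 7 ATPase ring and 12 base and lid genes, 3 base chaperones, 5 activators, 1 inhibitor and 3 core assembly chaperones. The remaining 2, psmc3ip and psme3ip1, share the symbol but encode no subunit. One alternative beta gene, psmb11b, was listed at 0 in all 3 tables, so fold changes were given for 54 genes.

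The proteasome degrades proteins that carry ubiquitin. Its core particle is a barrel of alpha rings, which gate the entrance, and beta rings, which hold the proteolytic sites. The regulatory particle caps the barrel, with a base whose ATPase ring unfolds the substrate and a lid that removes ubiquitin. In immune cells and after interferon, alternative beta subunits take the place of the catalytic ones to form the immunoproteasome, which together with the psme1 and psme2 activator favours peptides for antigen presentation. In the gut, as in other tissues, the standard particle is made by nearly every cell.

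Adult AB zebrafish were compared in 4 groups. Control fish were kept at 28.5 °C (28.5-Ctrl, 2 samples by the labels), and torpor fish were brought to 18.5 °C over several weeks and given 24 µM melatonin, a hormone used to lower activity (18.5-mel, 2 samples). In the study's own assay melatonin alone did not lower activity significantly. The radiation group stayed at 28.5 °C and received 32.64 cGy of gamma radiation to the whole body by the labels (28.5-rad, 3 samples), and the last group combined cold, melatonin and radiation (18.5-mel-rad, 4 samples). By the study's methods, which give a slightly higher total, the dose was split over 2 exposures under anaesthesia with tricaine. No anaesthesia is described for the unirradiated groups, so radiation cannot be told apart from anaesthesia and handling. Cold and melatonin were always given together in these groups, so they cannot be told apart. RNA came from the whole gastrointestinal tract (GIT), and a change in the cells present cannot be told apart from a change in RNA per cell.

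The data are the authors' 3 deposited comparisons, each of 1 treated group against the same 28.5-Ctrl samples. Values per sample were not used here, so the spread between samples enters through the deposited standard errors (SE). A gene was DE at q ≤ 0.1, where q is the adjusted p deposited from DESeq2, and a log2 fold change of 0.58 or more in either direction, about 1.49-fold. Mean expression is the mean of normalized counts over the libraries of a fit and is not scaled to gene length. The lowest mean expression with a q was 1.55 in the 18.5-mel table, 63.1 in that of 28.5-rad and 7.84 in that of 18.5-mel-rad. By steps in the mean values, the 18.5-mel libraries appeared shallower than those of 28.5-Ctrl. To the mean, 1 read in 18.5-mel added 6.26 to 25.0 times as much as 1 read of a 28.5-Ctrl library. They also appeared to differ from each other, with 1 read adding 0.340 normalized counts in one and 1.20 in the other. Low means in the 18.5-mel table can therefore rest on few reads. The 28.5-Ctrl steps of the 18.5-mel table were recognised by their ratio alone. Genes at those steps had log2 fold changes of 2.23 and 2.13. In the tables of the irradiated groups, genes at the 28.5-Ctrl steps were below 0, from -1.84 to -1.46. The cause was not tested, so the assignment is uncertain. The study's methods state a minimum read depth for every library. The sample codes of 18.5-mel also have another form than those of the other groups. By the study's methods sequencing was done at more than 1 site and on more than 1 instrument. Which samples went to which is not given, so a difference of sequencing run cannot be told apart from torpor in 18.5-mel. Among genes with a q and a mean expression of at least 50 normalized counts, the median SE was 0.426 in 18.5-mel, 0.257 in 28.5-rad and 0.243 in 18.5-mel-rad. The tissue was that of the label, with the enterocyte gene vil1 at 12845 normalized counts in the 28.5-rad table, and exocrine pancreas genes were also abundant, from 9430 to 83996.

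The proteasome genes were expressed at moderate to high levels, and most had a mean expression between those of psmd4a, at 71.4 normalized counts, and psmd1, at 971 in the 28.5-rad table. A q was given for all 54 genes with a fold change in 18.5-mel and in 18.5-mel-rad. In 28.5-rad only 48 had one, and those without were psmb5, psmd9, psmd10, psme3, psme4a and psmc3ip, each under 63.1 normalized counts. Among the 54 genes, 22 were DE in 18.5-mel, 14 raised and 8 lowered. The DE share over all its genes was 37.1% (21.3% raised and 15.8% lowered), and among those with a mean expression of at least 50 it was 55.8% (24.3% raised and 31.5% lowered), so the share of proteasome genes, 40.7%, was near or under the background. A single gene of 48, psmd3, was DE in 28.5-rad, lowered, where 1.94% of all genes were DE (1.34% raised and 0.599% lowered). In 18.5-mel-rad 25 of 54 were DE, and all 25 were raised. That share of 46.3% stood beside 6.06% raised and 5.68% lowered over all genes of the table (11.7% DE in all), or 14.7% DE, 7.51% raised and 7.2% lowered, among genes with a mean expression of at least 50.

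**Figure D1:**
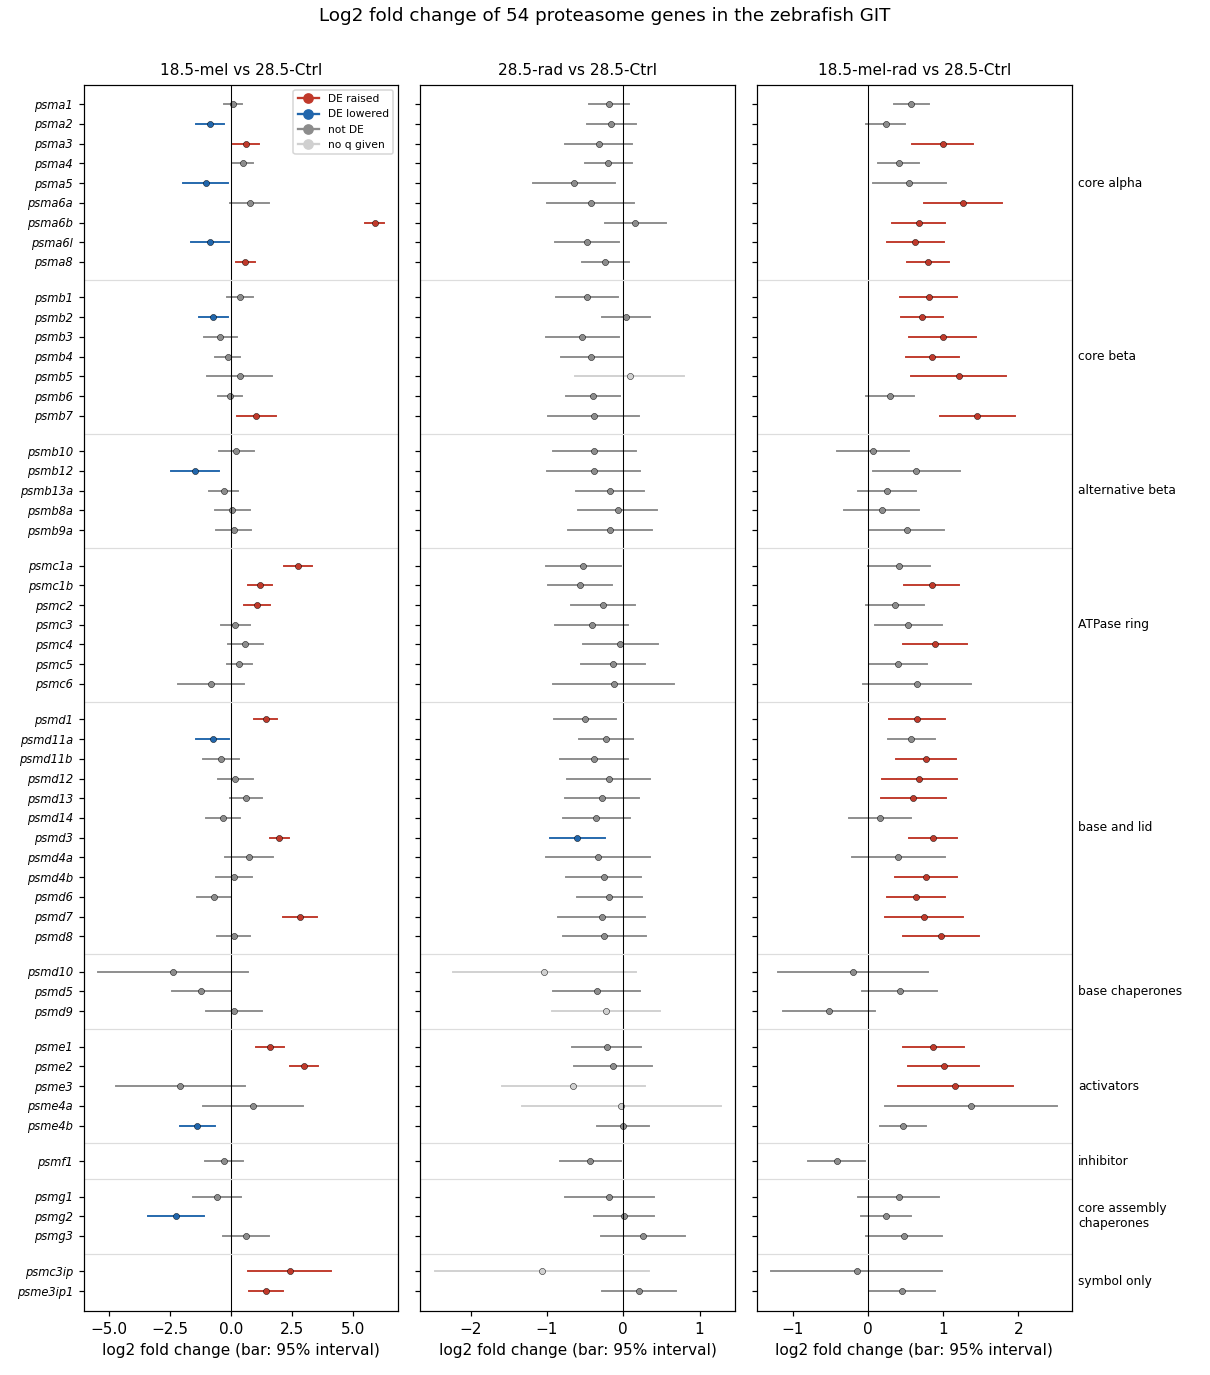
Log2 fold change (horizontal axis, bars give the 95% interval) of the 54 proteasome genes with values, by class, in each comparison with 28.5-Ctrl. Scales differ between the panels. Red points are DE raised, blue DE lowered, dark grey not DE and light grey without a q. The points of 18.5-mel run from -2.39 to 5.89, most of those of 28.5-rad lie left of 0, and 50 of those of 18.5-mel-rad lie right of it.

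Over the 54 genes the median log2 fold change was 0.14 in 18.5-mel, -0.26 in 28.5-rad and 0.62 in 18.5-mel-rad, while the medians over all genes with a q were 0.01, 0.01 and 0.02. In 28.5-rad, 43 of the 48 genes with a q were below 0 (89.6%), against 48.3% of all genes. In 18.5-mel-rad, 50 of 54 were above 0 (92.6%), against 51.1% of all genes. The 3 comparisons share the 28.5-Ctrl samples, so values of 1 gene in different comparisons are set side by side here and differences between them were not tested.

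Of the 9 genes of the alpha rings of the core, 3 were raised and 3 lowered in 18.5-mel, with a class median of 0.49. The largest change of any proteasome gene was that of psma6b, 5.89 (SE 0.20, 95% interval 5.50 to 6.27, q = 1.26e-192). Zebrafish have 3 genes of this alpha subunit, and the others had much smaller values, psma6a at 0.77 (SE 0.41, q = 0.146) and psma6l lowered at -0.86 (SE 0.39, q = 0.083). Reads may be shared between the 3, since how multiply mapping reads were counted is not given in the sources used here. Mean expression of psma6b was 650 normalized counts in the 18.5-mel table, against 127 and 133 in those of the irradiated groups, whereas that of psma6a was 96.2, against 138 and 148. Mean expression was lower in the 18.5-mel table than in the 28.5-rad table for 49 of the 54 genes, and the others were psma6b, psmc1a, psmd7, psme2 and psmc3ip, all raised in 18.5-mel. The tables were normalized apart. By the uncertain steps above, 1 read of a 28.5-Ctrl library added 0.0478 or 0.0543 normalized counts to the mean in the 18.5-mel table. In that of 28.5-rad it added 0.0777 or 0.0884. The lower means therefore do not show lower expression in 18.5-mel, and the share over all genes was not counted.

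Raised with it in 18.5-mel were psma3, at 0.63 (SE 0.27, q = 0.0649), and psma8, which RefSeq also lists as psma7, at 0.58 (SE 0.20, q = 0.0128). Lowered alpha genes were psma5, at -1.03 (SE 0.47, q = 0.0803), and psma2, at -0.87 (SE 0.30, q = 0.0152). In 28.5-rad none of the 9 alpha genes was DE, with values from -0.64 for psma5 to 0.16 for psma6b. In 18.5-mel-rad 5 were raised, psma6a most, by 1.26 (SE 0.27, q = 0.000138), then psma3 by 0.99 (SE 0.21, q = 9.84e-05), psma8, psma6b and psma6l. There psma6b stood at 0.67 (SE 0.18, q = 0.0047), a 1.59-fold rise. A near miss was psma1, whose log2 fold change of 0.576 lay just under the fold threshold at q = 8.78e-05. None of the 9 alpha genes was below 0 in 18.5-mel-rad, and the class median was 0.63.

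The 7 constitutive beta genes were the class with the largest share raised in 18.5-mel-rad, 6 of 7 (85.7%), with a median of 0.85. First among them and among all proteasome genes was psmb7, the trypsin-like catalytic subunit, with 1.45 (SE 0.25, q = 1.27e-06), a 2.74-fold rise. Next came psmb5, the chymotrypsin-like subunit, with a 2.30-fold rise (interval 0.57 to 1.84 on the log2 scale, q = 0.00456). The non-catalytic psmb3, psmb4, psmb1 and psmb2, which complete the beta ring, rose by 0.99, 0.85, 0.81 and 0.72. The exception was psmb6, the caspase-like subunit, at 0.29 (SE 0.16, q = 0.284). The 3 catalytic genes of the standard core therefore did not all pass the test, and the interval of psmb6 (-0.03 to 0.61) lay under that of psmb7 (0.96 to 1.95).

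In 18.5-mel only 1 beta gene was raised, psmb7 at 1.03 (SE 0.41, q = 0.039), and 1 was lowered, psmb2 at -0.72 (SE 0.31, q = 0.062). The other 5 lay between -0.43 for psmb3 and 0.35 for psmb1, none DE, and the class median was -0.05. In 28.5-rad no beta gene was DE and the median was -0.40, the lowest of the core and regulatory classes. There psmb7 was at -0.39 (SE 0.30, q = 0.761), psmb6 at -0.40 (SE 0.18, q = 0.387) and psmb3 at -0.54 (SE 0.25, q = 0.387), while psmb2 was at 0.03 (SE 0.16, q = 0.979).

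The ATPase ring, whose 6 kinds of subunit unfold the substrate, had 3 of 7 genes raised and none lowered in 18.5-mel, with a median of 0.59. These were psmc1a at 2.76 (SE 0.29, q = 1.24e-19), its paralog psmc1b at 1.19 (SE 0.26, q = 4.62e-05), and psmc2 at 1.05 (SE 0.27, q = 0.000624). A 6.77-fold rise of psmc1a thus stood beside a 2.28-fold rise of psmc1b, and reads may be shared between the pair. In 18.5-mel-rad 2 were raised, psmc4 by 0.89 (SE 0.22, q = 0.00152) and psmc1b by 0.84 (SE 0.19, q = 0.000361). The values of psmc1a and psmc2, 0.41 (SE 0.21, q = 0.222) and 0.36 (SE 0.20, q = 0.282), did not pass there. All 7 were above 0 in 18.5-mel-rad, with a median of 0.53, and all 7 were below 0 in 28.5-rad, with a median of -0.27 and none DE. The lowest of the class in 28.5-rad was psmc1b, at -0.56 (SE 0.21, q = 0.21).

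Of the 12 genes of the base and lid, 9 were raised in 18.5-mel-rad, with a median of 0.67. The most raised was psmd8, a lid subunit, by 0.97 (SE 0.26, q = 0.00424), followed by psmd3, a scaffold subunit of the lid, by 0.87 (SE 0.16, q = 1.09e-05). The ubiquitin receptor psmd4b, the lid subunits psmd11b, psmd7, psmd12, psmd6 and psmd13, and psmd1, a large scaffold of the base, rose by 0.60 to 0.77. Not DE were psmd14, the deubiquitinase of the lid, at 0.16 (SE 0.21, q = 0.715), psmd4a at 0.40 (SE 0.32, q = 0.493) and psmd11a at 0.576, just under the fold threshold, with q = 0.00718. The partner of psmd14 in the lid, psmd7, was raised by 0.75 (SE 0.27, q = 0.0471), with an interval that overlapped that of psmd14.

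In 18.5-mel 3 base and lid genes were raised and 1 was lowered. The 3 were psmd7 at 2.83 (SE 0.35, q = 1.22e-14), psmd3 at 1.98 (SE 0.20, q = 3.05e-21) and psmd1 at 1.42 (SE 0.25, q = 9.32e-08). In the later genome build GRCz12tu, psmd7 overlaps pkd1l2b, and psmd1 overlaps several genes, among them htr2b and ppp1r2. Reads may therefore be shared with them. The lowered gene was psmd11a, at -0.74 (SE 0.34, q = 0.0859). The other 8 lay between -0.71 for psmd6 and 0.74 for psmd4a, and psmd8, the most raised of the class in 18.5-mel-rad, was at 0.11 (SE 0.34, q = 0.839). The class median in 18.5-mel, 0.14, was therefore far from the values of its 3 raised genes.

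The gene psmd3 was DE in every comparison, raised by 1.98 in 18.5-mel and by 0.87 in 18.5-mel-rad, and lowered in 28.5-rad. Its log2 fold change in 28.5-rad was -0.60 (SE 0.18, 95% interval -0.96 to -0.24, q = 0.062), which is 1.52-fold lower. No other proteasome gene was DE in 28.5-rad. All 12 base and lid genes were below 0 there, from psmd3 to psmd6 at -0.18 (SE 0.22, q = 0.873). At an unadjusted p under 0.05 there were 11 proteasome genes in 28.5-rad, all below 0, or 20.4% of those with a p, against 5.77% of all genes. All 11 had a q, which makes 22.9% of the 48 members with one, against 9.91% of all genes with one. The call of psmd3 ended at q ≤ 0.05 and with adjustment over every gene with a p.

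**Figure D2:**
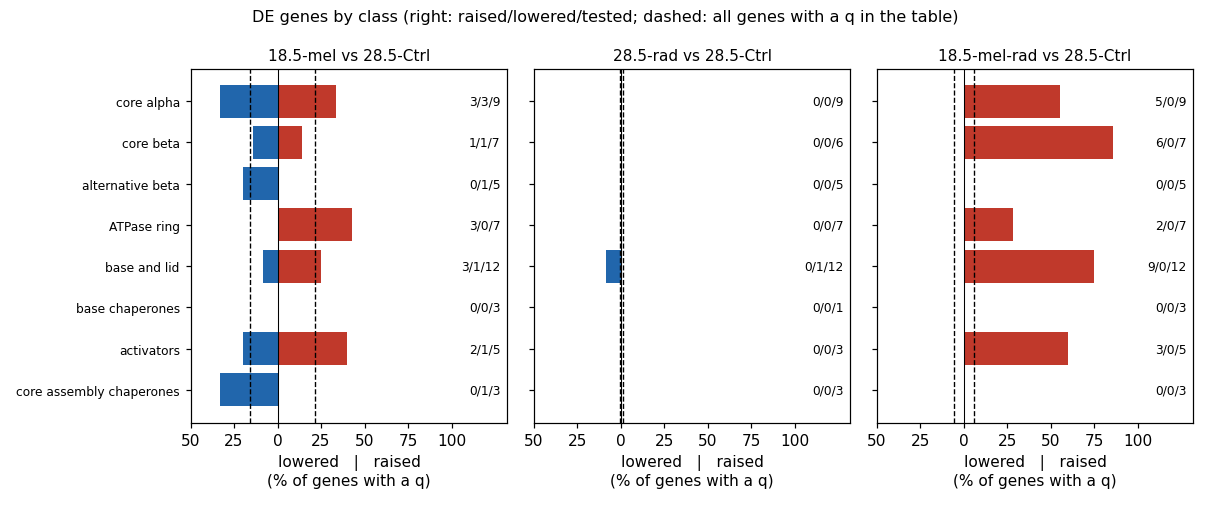
Percent of the genes with a q in each class that were DE raised (red, to the right) or DE lowered (blue, to the left) in each comparison with 28.5-Ctrl. Numbers at the right give genes raised, lowered and tested, and dashed lines give the share over all genes with a q. In 18.5-mel-rad 6 of 7 core beta and 9 of 12 base and lid genes were raised and 0 of 5 alternative beta genes.

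In 18.5-mel-rad 11 of 16 constitutive core genes (68.8%) and 11 of 19 regulatory particle genes (57.9%) were raised, with medians of 0.76 and 0.65. The raised share of all genes with a mean expression of at least 50 was 7.51% there. None of the 5 alternative beta genes with values was raised, and their median was 0.26. In 18.5-mel the constitutive core had 4 raised and 4 lowered, the regulatory particle 6 raised and 1 lowered, and the alternative beta genes 0 raised and 1 lowered, with medians of 0.21, 0.35 and 0.06. The raised shares were 25%, 31.6% and 0%, beside 24.3% of genes with a mean expression of at least 50. The lowered shares were 25%, 5.26% and 20%, beside 31.5%. The mean of the alternative beta genes there, -0.28, had the other sign than their median. In 28.5-rad the medians were -0.35, -0.28 and -0.18, and the 1 DE gene was in the regulatory particle. The difference between classes was not tested, and 5 genes are few.

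The alternative beta genes were compared with the subunits they replace. In mammals psmb8, psmb9 and psmb10 take the place of psmb5, psmb6 and psmb7, and RefSeq names the fish genes psmb12 and psmb13a as further forms of the psmb6 and psmb7 type. For the chymotrypsin-like site in 18.5-mel-rad, psmb5 was raised (95% interval 0.57 to 1.84), while psmb8a was at 0.18 (-0.31 to 0.68, q = 0.738). For the trypsin-like site psmb7 was raised by 1.45 (0.96 to 1.95), while psmb10 was at 0.06 (-0.42 to 0.55, q = 0.916) and psmb13a at 0.26 (-0.13 to 0.64, q = 0.474). The intervals of psmb7 and of both its alternative forms did not overlap, whereas those of psmb5 and psmb8a did. For the caspase-like site none was DE, with psmb6 at 0.29 (-0.03 to 0.61), psmb9a at 0.52 (SE 0.25, q = 0.193) and psmb12 at 0.64 (0.06 to 1.23, q = 0.166). At that site both alternative forms thus had higher estimates than the constitutive one, with overlapping intervals.

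Only psmb12 of the alternative forms was DE in any comparison. It was lowered in 18.5-mel, at -1.47 (SE 0.50, q = 0.0143), where psmb8a, psmb9a and psmb10 were at 0.06, 0.11 and 0.21 and psmb13a at -0.30, with q from 0.472 to 0.925. In 28.5-rad the 5 genes lay between -0.39 for psmb12 and -0.07 for psmb8a, with q from 0.736 to 0.972. Their standard errors were 0.20 to 0.50 over the 3 comparisons. In GRCz12tu, a later build than the GRCz11 of the tables, psmb13a, psmb8a, psmb12 and psmb9a are neighbours, with mhc1uba on one side and tap2a on the other, and their spans overlap. Whether reads were counted by strand is not given in the sources used here, so reads of overlapping genes may be shared.

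**Figure D3:**
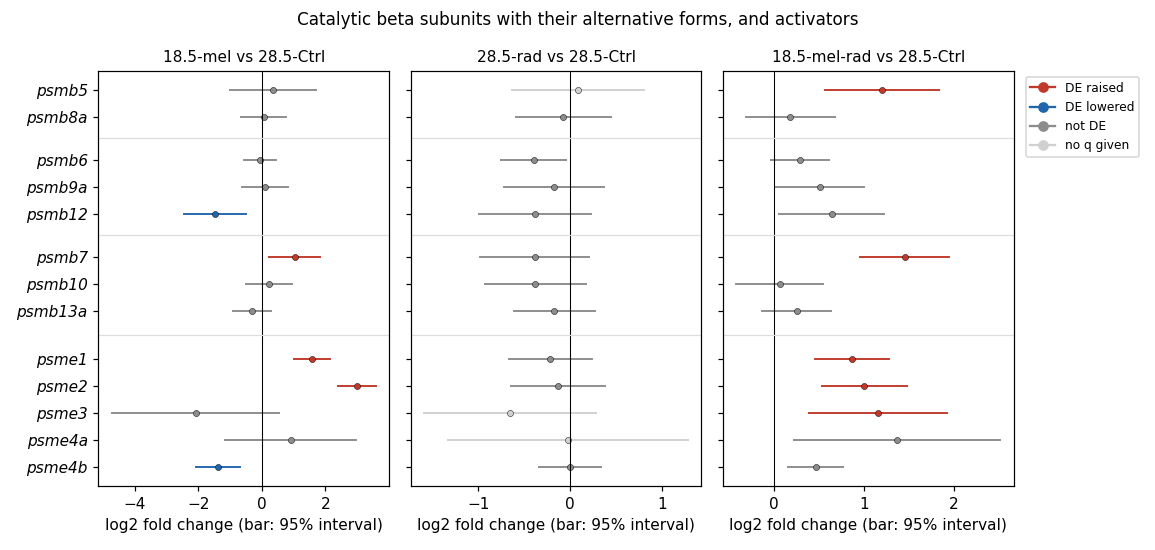
Log2 fold change (horizontal axis, bars give the 95% interval) of the catalytic beta genes, each followed by its alternative forms, and of the activators, in each comparison with 28.5-Ctrl. Scales differ between the panels. In 18.5-mel-rad psmb5, psmb7, psme1, psme2 and psme3 are DE raised, and the 5 alternative forms lie between 0.06 and 0.64 without passing the test.

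The activators psme1 and psme2, which form 1 ring on the core and are induced by interferon in mammals, were raised where the alternative beta genes were not. In 18.5-mel psme2 rose 7.98-fold (95% interval 2.41 to 3.58 on the log2 scale, q = 5.68e-22) and psme1 rose 3.01-fold (1.02 to 2.15, q = 3.99e-07). In 18.5-mel-rad psme2 was raised by 1.01 (SE 0.24, q = 0.00119) and psme1 by 0.87 (SE 0.21, q = 0.00119). In 28.5-rad psme2 and psme1 were at -0.13 (SE 0.26, q = 0.938) and -0.22 (SE 0.23, q = 0.846). The span of psme2 overlaps that of lsm5 in GRCz12tu.

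The other activator genes were psme3, psme4a and psme4b. The nuclear activator psme3 was raised in 18.5-mel-rad by 1.16 (SE 0.39, q = 0.0341) and stood at -2.08 (SE 1.35, q = 0.242) in 18.5-mel, with a mean expression of 23.3 normalized counts. The psme4 genes encode a large activator known in mammals for its part in sperm development and DNA repair. Of the pair, psme4b was lowered in 18.5-mel, at -1.37 (SE 0.36, q = 0.00077), and at 0.46 (SE 0.16, q = 0.033) in 18.5-mel-rad it missed the fold threshold. In 28.5-rad it was at -0.00 (SE 0.17, q = 0.999). Its paralog psme4a, at 11.4 to 16.3 normalized counts, was DE in no comparison.

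No assembly factor passed the test as raised in any comparison, and a difference from the subunits was not tested. None of the 3 base chaperones was DE in any comparison, and in 18.5-mel-rad psmd9 was at -0.52 (SE 0.31, q = 0.321), psmd10 at -0.20 (SE 0.51, q = 0.869) and psmd5 at 0.42 (SE 0.26, q = 0.338). Their medians were -1.22 in 18.5-mel, -0.35 in 28.5-rad and -0.20 in 18.5-mel-rad, with psmd10 at only 5.18 normalized counts in the 18.5-mel table. Of the core assembly chaperones, which build the alpha ring, psmg2 was lowered in 18.5-mel by 4.75-fold, at -2.25 (SE 0.59, q = 0.000913). Its binding partner psmg1 was at -0.56 (SE 0.50, q = 0.422) there, and psmg3 at 0.62 (SE 0.48, q = 0.342). All 3 were above 0 in 18.5-mel-rad and none was DE, with psmg1 at 0.41 (95% interval -0.13 to 0.95), psmg2 at 0.24 (-0.09 to 0.57) and psmg3 at 0.47 (-0.03 to 0.98). The inhibitor psmf1, which binds the core, was below 0 in every comparison, at -0.29 (SE 0.40), -0.43 (SE 0.20) and -0.42 (SE 0.19) in the same order, with q of 0.628, 0.422 and 0.168.

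Of the genes that share only the symbol, psmc3ip, a meiotic recombination factor, was raised in 18.5-mel by 2.41 (SE 0.87, q = 0.022), from a mean expression of 16.2 normalized counts. It was at -0.15 (SE 0.58, q = 0.917) in 18.5-mel-rad, and it overlaps mlx in GRCz12tu. The meiotic gene sycp1 was also raised in 18.5-mel, at 8.26 (SE 0.96, q = 2.44e-16), and its part in the value of psmc3ip was not tested. The other, psme3ip1, whose product binds psme3, was raised in 18.5-mel by 1.43 (SE 0.35, q = 0.000304) and stood at 0.45 (SE 0.22, q = 0.21) in 18.5-mel-rad. Without both genes, 20 of 52 were DE in 18.5-mel and 25 of 52 in 18.5-mel-rad.

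Fewer genes were lowered than raised in 18.5-mel, but the 8 lowered ones came from 6 classes, namely psma2, psma5 and psma6l, psmb2, psmb12, psmd11a, psme4b and psmg2. At q ≤ 0.05 only 4 were lowered, without psma5, psma6l, psmb2 and psmd11a, and 13 raised, without psma3. With adjustment over every gene with a p, 5 were lowered, without psma5, psma6l and psmd11a, and 14 raised. Beside these, their values in 18.5-mel-rad ran from 0.23 for psma2 to 0.72 for psmb2, where psmb2 and psma6l were raised and the other 6 were not DE. The comparisons share their controls and were normalized apart, and the difference was not tested.

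Some genes of the proteasome lay outside the symbol rule. A gene named PSMA2 by its human counterpart, ENSDARG00000035679, was raised in 18.5-mel by 2.87 (SE 0.23, q = 1.01e-33) and in 18.5-mel-rad by 0.76 (SE 0.20, q = 0.00384), where psma2 itself was lowered in the former and not DE in the latter. Of 2 genes named PSMD2, the scaffold of the base that receives ubiquitin, both found only in the 18.5-mel table, ENSDARG00000103190 was raised by 1.95 (SE 0.25, q = 1.31e-13), and ENSDARG00000099653 was at -0.10 (SE 0.31, q = 0.838). Reads may be shared within both pairs. Of a list of 13 companions of the proteasome, 11 were measured, with 2 raised and 1 lowered in 18.5-mel, none DE in 28.5-rad and 1 lowered in 18.5-mel-rad. The DE shares were 27.3% and 9.09%, beside 37.1% and 11.7% of all genes. Among genes with a mean expression of at least 50 these were 55.8% and 14.7%. The small lid subunit sem1 was raised in 18.5-mel by 1.44 (SE 0.25, q = 8.04e-08), and the proteasome-bound thioredoxin txnl1 by 1.27 (SE 0.32, q = 0.000452). The maturation factor pomp, which the beta ring needs for its assembly, was lowered there, at -1.51 (SE 0.45, q = 0.00473), and at 0.56 (SE 0.23, q = 0.0982) in 18.5-mel-rad it lay under the fold threshold. The lowered gene in 18.5-mel-rad was aamp, at -0.95 (SE 0.19, q = 7.41e-05). It was the only DE gene of the list there, and whether aamp belongs with the proteasome was not examined here.

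Ubiquitin and its activating and conjugating enzymes, 18 of 19 listed genes measured, had 3 raised and 3 lowered in 18.5-mel, none DE in 28.5-rad, and 2 raised and 1 lowered in 18.5-mel-rad. The DE shares, 33.3% and 16.7% of 18 genes, stood beside 37.1% and 11.7% of all genes. At a mean expression of at least 50 the shares of all genes were 55.8% and 14.7%. The polyubiquitin gene ubc passed the q threshold in all 3 comparisons but not that of the fold change, at -0.48 (SE 0.15, q = 0.00567) in 18.5-mel, -0.48 (SE 0.12, q = 0.00609) in 28.5-rad and 0.44 (SE 0.11, q = 0.00151) in 18.5-mel-rad. Of the delivery factors, 14 of 17 listed genes were measured, with 6 raised and 1 lowered in 18.5-mel, none DE in 28.5-rad and 2 raised in 18.5-mel-rad. Raised shares were 42.9% and 14.3% of 14 genes, beside 21.3% and 6.06% of all genes. Among genes with a mean expression of at least 50, 24.3% and 7.51% were raised. Both of the genes raised in 18.5-mel-rad belong to the unfolding complex that hands substrates to the proteasome. They are vcp, its ATPase, at 0.63 (SE 0.29, q = 0.0792) in 18.5-mel, -0.40 (SE 0.23, q = 0.566) in 28.5-rad and 0.75 (SE 0.20, q = 0.00548) in 18.5-mel-rad, and ufd1l, its cofactor, at 0.76, -0.19 and 0.66. Another cofactor of that complex, nploc4, was DE in no comparison, at 0.37, -0.02 and 0.21 in the same order (q = 0.35, 0.988 and 0.426).

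Transcription factors that act on proteasome genes, with their partners and processing enzymes, were 14 of 14 listed genes. In 18.5-mel 1 was raised and 3 lowered, in 28.5-rad none was DE, and in 18.5-mel-rad 1 was raised and 1 lowered. The DE shares of those with a q were 30.8% of 13 and 16.7% of 12, beside the same 37.1% and 11.7%. Among genes with a mean expression of at least 50 the shares were 55.8% and 14.7%. The oxidative stress regulator nfe2l2a was lowered, at -1.86 (SE 0.24, q = 2.12e-13) in 18.5-mel and -1.05 (SE 0.18, q = 1.42e-06) in 18.5-mel-rad, with 0.09 (SE 0.19, q = 0.949) in 28.5-rad. Its repressor keap1b was raised, by 0.90 (SE 0.35, q = 0.0391) in 18.5-mel and 0.77 (SE 0.21, q = 0.00468) in 18.5-mel-rad. The paralog keap1a was DE in neither, at 0.12 (SE 0.47, q = 0.872) and 0.91 (SE 0.37, q = 0.104). The other lowered genes in 18.5-mel were bach1a, at -2.47 (SE 0.78, q = 0.00726), and bach1b, at -0.93 (SE 0.45, q = 0.0995). In 18.5-mel-rad bach1a and bach1b were not DE, at -0.12 and 0.32. The nfe2l1 genes, which raise proteasome transcription when the proteasome is blocked in mammals, were low, with nfe2l1a at 8.61 to 13.3 normalized counts and nfe2l1b at 3.55 to 4.24, and neither was called DE. In 18.5-mel nfe2l1b was at 3.23 (SE 1.55), with a q just above 0.1, and nfe2l1a at 0.39 (SE 0.98, q = 0.796). Neither had a q in 28.5-rad, and in 18.5-mel-rad only nfe2l1a had one, at 0.09 (SE 0.49, q = 0.942).

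**Figure D4:**
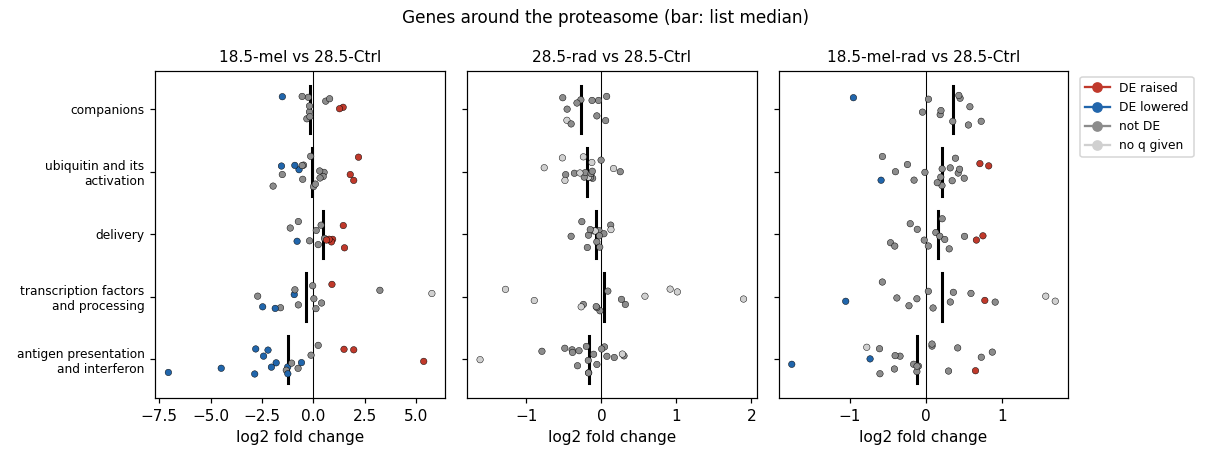
Log2 fold change (horizontal axis) of each measured gene of 5 lists around the proteasome in each comparison with 28.5-Ctrl, with a black bar at the list median. Scales differ between the panels and the vertical scatter within a list carries no value. In 18.5-mel 11 of 19 genes of antigen presentation and interferon response are DE lowered, and in 18.5-mel-rad 2 are.

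Genes of antigen presentation and the interferon response, of which 19 of 27 listed were measured, had 3 raised and 11 lowered in 18.5-mel (median -1.25), none DE in 28.5-rad (median -0.17), and 1 raised and 2 lowered in 18.5-mel-rad (median -0.12). Of the genes with a q, 57.9% were lowered and 15.8% raised in 18.5-mel, against 31.5% and 24.3% of all genes with a mean expression of at least 50, and 16.7% were DE in 18.5-mel-rad, against 14.7%. The lowered genes in 18.5-mel included mhc1uba, a class I gene next to the alternative beta genes, at -7.05 (SE 1.27, q = 3.36e-07), the peptide transporter tap1 at -4.48 (SE 1.02, q = 9.84e-05) and the class I light chain b2m at -2.42 (SE 0.32, q = 5.89e-13). In 18.5-mel-rad mhc1uba, tap1 and b2m were not DE, at -0.12, -0.12 and -0.10. The interferon signal transducer stat1b was lowered in 18.5-mel at -2.85 (SE 0.60, q = 2.00e-05) and in 18.5-mel-rad at -1.76 (SE 0.44, q = 0.00231). The 3 raised in 18.5-mel were the interferon regulatory factor irf1a, at 5.36 (SE 1.06, q = 4.73e-06) from a mean expression of 14.4 normalized counts, and the calreticulin genes calr, at 1.96 (SE 0.32, q = 2.29e-08), and calr3a, at 1.48 (SE 0.31, q = 2.06e-05), which encode chaperones of the endoplasmic reticulum. The raised gene in 18.5-mel-rad was calr, at 0.65 (SE 0.26, q = 0.0901), and irf1a had no q in the tables of the irradiated groups.

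Leukocytes express the immunoproteasome, so their markers were measured beside it. Of 21 listed markers 18 were found, of which lyz was listed at 0 in all tables. In 18.5-mel 4 were raised, in 28.5-rad none was DE and in 18.5-mel-rad 3 were raised, with no marker lowered. Of the markers with a q, 23.5% were raised in 18.5-mel, near the 21.3% of all genes, and 21.4% of 14 in 18.5-mel-rad, beside 6.06%. Among genes with a mean expression of at least 50, 24.3% and 7.51% were raised. The list medians were 0.81, 0.27 and 0.58. The neutrophil gene mpx was raised in 18.5-mel-rad by 3.73 (SE 0.53, q = 7.58e-10), and cd74a, of antigen-presenting cells, by 1.31 (SE 0.37, q = 0.00784). The pan-leukocyte gene ptprc was raised in 18.5-mel by 1.11 (SE 0.35, q = 0.00719) and was at 0.45 (SE 0.27, q = 0.314) in 18.5-mel-rad. Of 9 measured enterocyte markers, 4 were lowered in 18.5-mel, 1 was raised in 28.5-rad, and 1 was raised and 1 lowered in 18.5-mel-rad. A q was given for 8 of them in each comparison. Of these 8, 50% were lowered in 18.5-mel, beside 15.8% of all genes and 31.5% at a mean expression of at least 50. In 18.5-mel-rad 25% of the 8 were DE, beside 11.7% and 14.7%. In 28.5-rad 1.34% of all genes were raised. Liver markers had medians of -2.24, -2.61 and -2.30 in the 3 comparisons, with a median SE of about 2. Only tfa was DE, lowered in 18.5-mel, or 1 of 8 with a q there. Exocrine pancreas markers had medians of -0.72, -0.89 and -0.81 with 2 DE. Both were lowered in 18.5-mel, or 20% of the 10 with a q. The lowered shares of all genes beside these were the same 15.8% and 31.5%. Of 11 measured testis and germ cell markers 2 were raised in 18.5-mel, sycp1 and amh, or 40% of the 5 with a q, beside 21.3% of all genes. Of 8 measured ovary markers none was DE in any comparison, with a q for at most 3 of them. Their medians were 2.57, 2.47 and 2.42, with median SE of 2.58, 2.85 and 2.45. In 18.5-mel 6 of the 7 with a fold change were above 0 and 0 were below. Without a q there were zp3b, at 6.07 (SE 1.60), and zar1, at 5.30 (SE 1.88). A difference in ovary content was therefore not settled by the calls. The part of these cells in the values of the proteasome genes was not tested.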

How the data were processed

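RNA of the zebrafish GIT was sequenced in 11 samples of 4 groups. Per the labels and the study's methods, reads were passed through FastQC and Cutadapt, mapped with STAR to GRCz11 and counted by HTSeq before the authors ran DESeq2 on the groups, with versions and strand setting not given in the sources used here. Fold changes were deposited as log2 values with a standard error. Each p-value, raw and adjusted, is from the Wald test of DESeq2 as deposited by the authors, and a missing one was kept missing. The deposited Wald score served only as a check of the columns. The mean expression deposited by the authors is a signal in normalized counts. The tables hold only these comparisons, and 0 columns of values per sample were left unused.

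Genes were called at q ≤ 0.1 and a log2 fold change of 0.58 or more in either direction, after the study's methods. Members, classes, lists and named genes were chosen with earlier results of these data known. The rule named, per comparison, the 8 DE members with the largest rise and the 8 with the largest fall, psmb7 and psmd3, the immunoproteasome and activator genes with their counterparts, and psmc3ip. Other named genes, among them psma1, psmd14, psmf1 and the genes of the lists, were chosen after their values were seen. The 95% intervals are 1.96 SE to each side. Depth steps were read from mean values shared by many genes with 1 fold change, and the 28.5-Ctrl libraries were recognised by the ratio of their steps, 1.13 in the 18.5-mel table and 1.14 in the 28.5-rad table. All 55 members were matched to RefSeq annotation of GRCz12tu for names and neighbours, and 15 overlap another gene. Among these are psmb1, psmb10, psmd1, psmd6, psmd7, psmd8 and psme3. The labels give each sample its own code and not the number of fish in it, so the spread behind the errors may be technical. The errors come from each whole fit, which may hold libraries beyond the compared groups. They may therefore not measure the spread between the compared samples alone. The codes of both 28.5-Ctrl samples carry an F and those of the irradiated groups an F or an M, those of 18.5-mel carry neither, and no meaning is stated.

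The planned test of the difference between the irradiated groups was not run, because mean expression of the 54 members differed between both tables, by 1.01 to 1.10 times with a median of 1.06, so they were normalized apart. The means were close even for psmb7, at 204 and 206 normalized counts, though its fold changes were 0.76 in 28.5-rad and 2.74 in 18.5-mel-rad. Both fits therefore appear to have held libraries beyond 1 treated group and 28.5-Ctrl. Which libraries each fit held is not given. No sequence is shown, since no promoter, protein or genome sequence was used here. The adjustment and the calls were tested on simulated data. Python 3.11.15, pandas 2.3.3, numpy 2.4.6, scipy 1.17.1 and matplotlib 3.10.9 were used. Alternatives were q ≤ 0.05 and q ≤ 0.01, no fold threshold, a log2 fold change of at least 1, Benjamini-Hochberg adjustment over every gene with a p-value, a mean expression of at least 10, and members without psmc3ip and psme3ip1. A background of genes with a mean expression of at least 50, also for the median SE, and one of unadjusted p-values among genes with a q were added after the data were seen.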

Additional observations from a re-analysis of the deposited data

How the results depend on the processing

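Of 21 alternative counts of DE proteasome genes, 15 stayed within 1.5 times the reported ones. In 18.5-mel, q ≤ 0.01 left 12 genes, 10 raised and 2 lowered. In 28.5-rad, q ≤ 0.05, q ≤ 0.01, a log2 fold change of at least 1 and adjustment over every gene with a p-value each left 0 genes, while 11 had an unadjusted DESeq2 p under 0.05. In 18.5-mel-rad a log2 fold change of at least 1 left 5 genes, and all its alternatives held raised genes only. Of 72 alternative class medians, 70 moved by less than the median SE of the class. Among these 70, 3 took the other sign. In 18.5-mel the core beta genes were at 0.06 and the alternative beta genes at -0.28 as means, and in 28.5-rad the core assembly chaperones were at -0.0014 after subtraction of the median of all genes. The others were in 18.5-mel, where the base chaperones moved to -0.55 without psmd10, which is under a mean expression of 10, and the activators to 0.41 as a mean. The cause was not tested. The test of the difference between the irradiated groups and its 3 alternatives were not run. No paired analysis was possible because the deposited tables hold no values per sample, and no sample could be left out for the same reason.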
